A study of Mus musculus with 5 samples.

Results

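ADP-ribosyltransferases attach ADP-ribose from NAD to proteins, and the genes described here are 9 members of this class measured in soleus myocytes. They were chosen by symbol, from a list of 10, as probe sets whose single gene symbol in the array annotation was *Parp2*, *Parp3*, *Parp4*, *Parp8*, *Tnks*, *Tnks2*, *Art1*, *Art3* or *Art5*. Each of the 9 had 1 probe set, among 19505 genes measured. *Parp1*, the member that the study itself follows as a consumer of NAD in muscle, was not analysed here.

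PARPs and tankyrases work inside the cell, where they add single ADP-ribose units or chains of them, poly(ADP-ribose), to proteins. PARP2 and PARP3 act at broken DNA, and tankyrases mark proteins for destruction, axin of the Wnt pathway among them. The ecto-ADP-ribosyltransferases (ARTs) are anchored to the outer cell surface or secreted, and ART1 was first cloned from rabbit skeletal muscle. All of these enzymes that are active split NAD, so they share a substrate with the sirtuins.

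RNA came from the left soleus of 5 sedentary mice, numbered 1, 3, 11, 14 and 16, all Myogenin-Cre x RiboTag-Rpl22fl/fl-HA. Cre, driven by myogenin, switches the ribosomal protein RPL22 of myogenic cells to an HA-tagged form. Ribosomes were pulled down with an antibody against HA, and the RNA of each mouse was read on 1 array of the Affymetrix type Clariom S. Unless otherwise stated in the methods, mice were sexually mature males and tissues were taken after a short fast, and the Cre line had been backcrossed to the C57BL6/6 J strain. The labels give neither age nor sex, and the tag marks every cell that has expressed myogenin, with no separation of fiber types. The series holds a single group with no untagged control, and no whole-muscle input was analysed here, so enrichment in myocytes was not measured.

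Values are log2 signals as the authors deposited them, so that 1 unit is a doubling of signal. Arrays had medians between 5.11 and 5.20 and correlated at a Pearson's r between 0.976 and 0.986 across probe sets, which are not independent replicates. The tagged gene *Rpl22* had 12.12 ± 0.53 and the driver gene *Myog* 7.12 ± 0.69 (SD, n = 5 each). All 10 myofiber markers listed were called above background. Markers of other cells were called in 15 of 36 cases, against 43.5% of all genes, with 5 of 5 for fibroblasts, 4 of 7 for endothelium, 3 of 5 for smooth muscle and 0 of 6 for immune cells. Y-linked *Eif2s3y* read 3.54 and 3.53 in mice 1 and 16, and 10.42, 11.92 and 12.73 in mice 3, 11 and 14. The Y-linked genes *Kdm5d* and *Uty* split the same way. *Kdm5d* read 3.13 and 3.52 in mice 1 and 16 and between 5.8 and 6.24 in the others. *Uty* read 4.09 and 3.93 in mice 1 and 16 and between 6.96 and 7.44 in the others. With the methods naming males, mice 1 and 16 were therefore also left out in an alternative for each gene below. In such bulk samples, fewer cells of a type and less RNA per cell cannot be told apart.

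The background level was set by 1091 odorant receptor genes, which are used mainly in the nose. Their 95th percentile served as the cutoff of each array, and it ranged from 5.25 (mouse 16) to 5.32 (mouse 1). Genes count as called above background where a two-sided limma fit over all genes put the signal minus the cutoff above 0, with a Benjamini-Hochberg adjusted p below 0.05. Each probe set has its own affinity, so signals are compared between mice and with the cutoff, and genes are not ranked by transcript amount.

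All 9 genes were called above background, and each lay above the cutoff in 5 of 5 mice. Over all 19505 genes, limma called 43.5%, and 42.5% lay above the cutoff in each mouse. All 9 were also called under each alternative. Of all genes, 41.0% were called with vomeronasal receptor genes as background, 38.1% with keratin-associated protein and defensin genes, 65.7% at the 50th, 46.8% at the 90th and 38.2% at the 99th percentile. A trended and robust prior called 43.3%, and a filter on mean signal 55.2% of the genes it kept. Leaving out mouse 1, 3, 11, 14 or 16 gave 43.0%, 42.9%, 42.9%, 43.0% and 42.8%, and leaving out mice 1 and 16 gave 42.2%. The median distance from the cutoff was 4.07 over the 9 genes and -0.12 over all genes. The list was drawn up with results of these arrays known, so its full count is a description and not evidence about the family. The 36 markers of other cells had a median distance of -0.11. Of these, *Rgs5* of smooth muscle and *Dcn* of fibroblasts lay 4.42 and 4.07 above the cutoff. A call therefore does not show that a transcript came from myocytes.

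**Figure D1:**
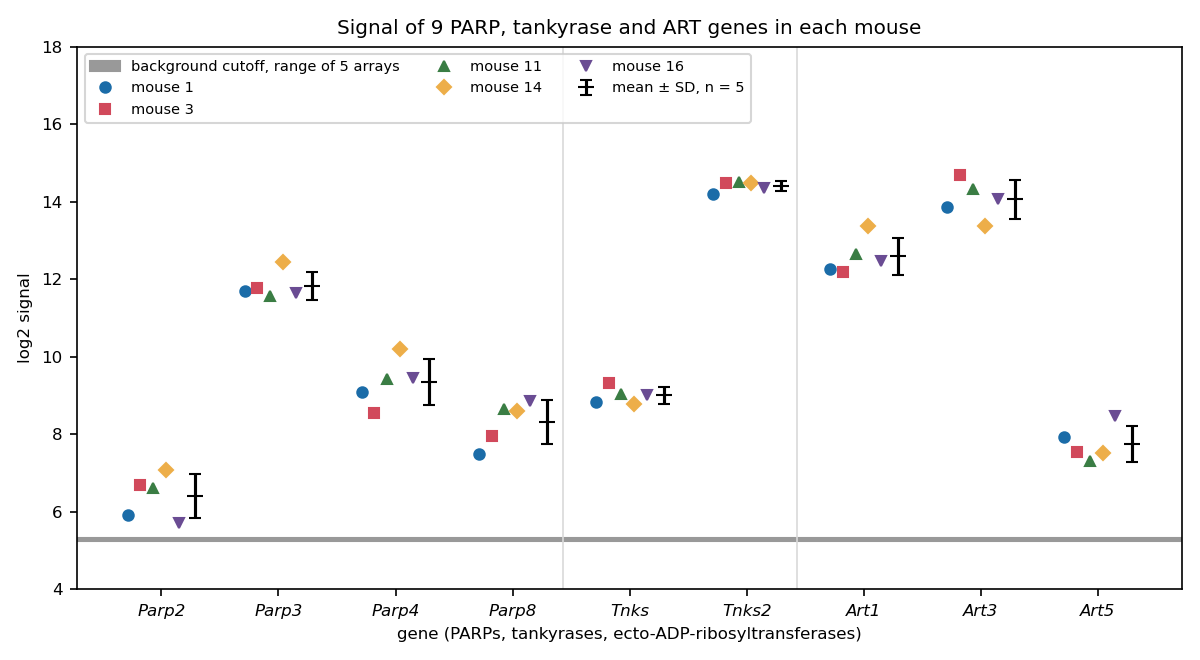
Log2 signal (vertical axis) of the 9 genes in each of 5 mice (coloured symbols), with the mean and SD in black and the range of the background cutoff over the arrays as a grey band. Every symbol lies above the band, and the lowest, *Parp2* in mouse 16, reads 5.71.

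Among the PARPs, *Parp2* encodes the enzyme that shares with PARP1 the response to DNA breaks. Its signals were 5.92, 6.69, 6.60, 7.08 and 5.71 in mice 1, 3, 11, 14 and 16. Mice 1 and 16 were the lowest, and both lay under the other 3. The mean was 6.40 ± 0.57 (SD, n = 5), at a distance of 1.12 from the cutoff (standard error, SE, 0.20, limma adjusted p = 0.000217). It depended on the cutoff, with 0.57 where genes of keratin-associated proteins and beta-defensins set the cutoff (limma adjusted p = 0.0171) and 0.59 where the cutoff was the 99th percentile (limma adjusted p = 0.0221). Without mice 1 and 16 it was 1.52 (limma adjusted p = 0.000127).

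*Parp3*, whose product adds single ADP-ribose units at double-strand breaks, read 11.70, 11.77, 11.57, 12.45 and 11.64 in mice 1, 3, 11, 14 and 16. Mouse 14 stood apart, and the other 4 lay within 0.20 of each other. By the same measure, a gap to the nearest mouse over 0.71 of the whole range, 5.60% of called genes had a mouse that stood apart. The mean was 11.83 ± 0.36 (SD, n = 5), 6.55 above the cutoff (SE 0.16, limma adjusted p = 2.84e-12). Without mouse 14 the SD was 0.084 and the distance 6.39 (limma adjusted p = 6.65e-12).

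*Parp4* encodes the PARP of the vault, a large cytoplasmic ribonucleoprotein particle. Its signals in mice 1, 3, 11, 14 and 16 were 9.10, 8.56, 9.43, 10.19 and 9.46. Mouse 14 was again the highest and mouse 3 the lowest, a range of 1.63 log2 units or 3.10-fold. The mean of 9.35 ± 0.59 (SD, n = 5) lay 4.07 above the cutoff (SE 0.20, limma adjusted p = 2.5e-09). *Mvp*, for the major vault protein, was also called, at 10.95 ± 0.42 (SD, n = 5), with its highest signal of 11.56 in mouse 16 and 10.99 in mouse 14.

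The mono-ADP-ribosyltransferase gene *Parp8* read 7.50, 7.96, 8.65, 8.60 and 8.85 in mice 1, 3, 11, 14 and 16. Mice 1 and 3 were low and the other 3 lay close together. Its mean of 8.31 ± 0.56 (SD, n = 5) was 3.03 above the cutoff (SE 0.20, limma adjusted p = 3.95e-08).

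The 2 tankyrases, which build poly(ADP-ribose) on axin and on telomere proteins, varied least between mice. *Tnks* read 8.83, 9.33, 9.03, 8.79 and 9.02 in mice 1, 3, 11, 14 and 16, with mouse 3 highest. The mean of 9.00 ± 0.21 (SD, n = 5) lay 3.72 above the cutoff (SE 0.14, limma adjusted p = 1.79e-10). *Tnks2* read 14.21, 14.50, 14.52, 14.48 and 14.37 in the same mice. Mouse 1 was the lowest, and the whole range was 0.31 log2 units or 1.24-fold. Its mean of 14.42 ± 0.13 (SD, n = 5) lay 9.14 above the cutoff (SE 0.13, limma adjusted p = 5.66e-14). Without mouse 3 the SD of *Tnks* was 0.13, and without mouse 1 that of *Tnks2* was 0.068.

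Among the ARTs, *Art1* encodes the arginine-specific transferase that a lipid anchor holds on the muscle cell surface. Mice 1, 3, 11, 14 and 16 gave 12.26, 12.18, 12.65, 13.39 and 12.48. Mouse 14 was the highest, as for *Parp2*, *Parp3* and *Parp4*. The mean was 12.59 ± 0.48 (SD, n = 5), 7.31 above the cutoff (SE 0.18, limma adjusted p = 3.46e-12), and without mouse 14 the SD was 0.21. *Itga7* encodes integrin alpha 7, a surface protein that ART1 modifies in muscle. Its transcript signal was 8.97 in mouse 14, its lowest value, and between 9.97 and 11.33 in the other 4. *Itgb1*, for the beta 1 chain, read 12.93 in mouse 14 and between 14.31 and 15.32 in the other 4. Over all called genes, mouse 14 was the lowest for 24.1%.

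*Art3*, a relative for which no transferase activity is known in human, read 13.86, 14.70, 14.34, 13.37 and 14.07 in mice 1, 3, 11, 14 and 16. Here mouse 3 was the highest and mouse 14 the lowest, a range of 1.33 log2 units. The mean of 14.07 ± 0.50 (SD, n = 5) lay 8.79 above the cutoff (SE 0.19, limma adjusted p = 9.71e-13).

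*Art5*, for a secreted transferase of mouse, had signals of 7.94, 7.53, 7.31, 7.51 and 8.46 in mice 1, 3, 11, 14 and 16. Mice 16 and 1 were the highest, and the other 3 lay within 0.22 of each other. Its mean of 7.75 ± 0.46 (SD, n = 5) was 2.47 above the cutoff (SE 0.18, limma adjusted p = 8.62e-08). The SD was 0.26 without mouse 16. Without mice 1 and 16 the distance was 2.18 (limma adjusted p = 1.08e-05).

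**Figure D2:**
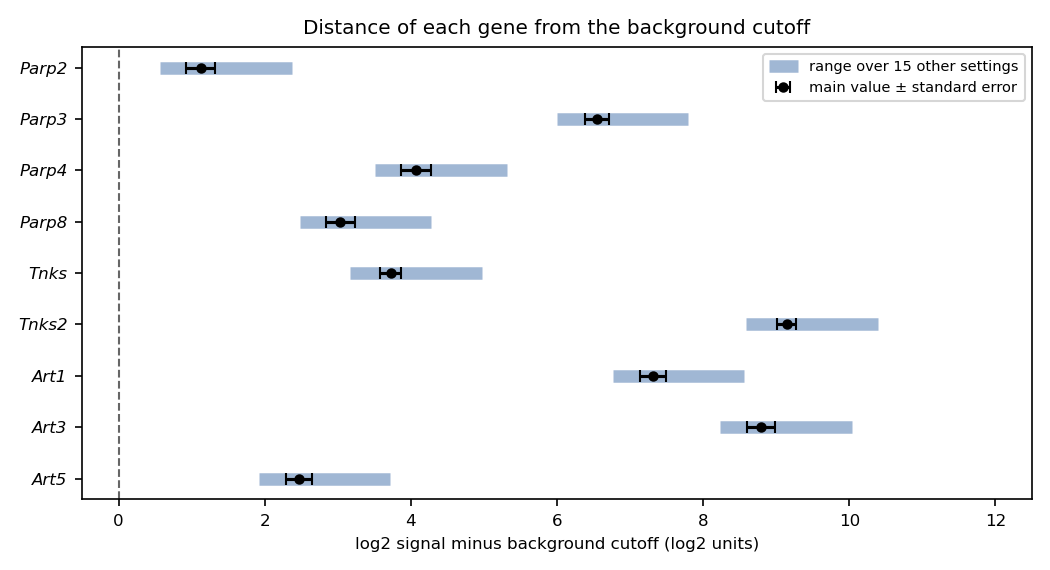
Signal minus background cutoff in log2 units (horizontal axis) for each gene, as the main value with its standard error (black) and the range over 15 other settings (blue bars). All bars lie right of 0, and that of *Parp2* runs from 0.57 to 2.37.

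The promoters of *Art1*, *Art5*, *Art3* and *Parp3* are shown because *Art1* and *Art5* are neighbours that start on opposite strands, because *Parp3* shares its start region with another gene, and because the second start of *Art3* held a pair of TATA boxes. Promoter windows were found for 8 of the 9 genes in a RefSeq table (build GRCm38.p6), 10 windows in all, of which *Art3* had 3. Each sequence is the 250 bases before a start site, 5′ to 3′ on the strand of the gene. Capitals mark E-boxes (CANNTG, the motif of myogenic factors) and TATA boxes (TATAAA), searched on both strands and not overlapping each other in these windows.
Art1, chr7:102101493-102101742, plus strand: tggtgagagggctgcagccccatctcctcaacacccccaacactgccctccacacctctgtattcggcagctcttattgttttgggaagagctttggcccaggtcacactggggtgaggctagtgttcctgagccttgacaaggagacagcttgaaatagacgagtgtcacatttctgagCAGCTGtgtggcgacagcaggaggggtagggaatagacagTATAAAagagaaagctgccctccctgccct
Art5, chr7:102100230-102100479, minus strand: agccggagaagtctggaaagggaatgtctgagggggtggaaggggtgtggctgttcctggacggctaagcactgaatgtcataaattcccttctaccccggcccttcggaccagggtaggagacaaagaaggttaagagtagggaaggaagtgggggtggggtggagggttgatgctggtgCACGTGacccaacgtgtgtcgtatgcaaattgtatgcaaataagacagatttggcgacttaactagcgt
Art3, second start, chr5:92386637-92386886, plus strand: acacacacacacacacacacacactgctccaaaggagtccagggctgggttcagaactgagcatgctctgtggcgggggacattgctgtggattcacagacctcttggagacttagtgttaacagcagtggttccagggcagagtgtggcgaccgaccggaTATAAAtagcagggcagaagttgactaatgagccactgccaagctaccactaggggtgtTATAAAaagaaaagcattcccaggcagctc
Parp3, chr9:106476950-106477199, minus strand: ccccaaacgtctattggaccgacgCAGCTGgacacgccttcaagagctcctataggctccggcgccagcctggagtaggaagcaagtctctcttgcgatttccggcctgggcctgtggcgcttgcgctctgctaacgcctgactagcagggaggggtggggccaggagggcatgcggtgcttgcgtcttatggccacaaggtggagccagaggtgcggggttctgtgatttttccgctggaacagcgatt

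An E-box was present in 8 of the 10 windows of these genes and in 66.2% of 32817 such windows over the genome, so this match is common. TATA boxes were in 3 windows, 1 of *Art1* and 2 of *Art3*, against 12.4% of all windows. The first start of *Art3*, not shown, held 3 matches, with 1 overlap, and the second held 2. Which start of *Art3* is used in soleus was not measured. The MEF2 consensus was in 0 of the 10 windows, against 2.92% of all. GC boxes (GGGCGG) were in 3 windows, those of *Parp2*, *Parp4* and *Parp8*, against 32.7% of all, and CCAAT boxes (CCAAT) in 2, those of *Parp3* and *Parp4*, against 33.8%. A match describes the letters and shows no binding.

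The start sites of *Art1* and *Art5* in this table are 1514 bases apart. Their signals had different orders over mice, with mouse 14 the highest for *Art1* and mouse 16 the highest for *Art5*. *Rrp9*, which encodes a protein of U3 small nucleolar RNA particles, starts 360 bases from *Parp3* on the other strand and is named because it is this neighbour. It read 10.73, 10.30, 9.69, 9.39 and 10.36 in mice 1, 3, 11, 14 and 16. Mouse 14, the highest for *Parp3*, was the lowest for *Rrp9*. Over all called genes, mouse 14 was the highest for 26.7% and the lowest for 24.1%, more than any other mouse in both.

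Between mice, the SD was above the median of all called genes (0.363) for 6 of the 9 genes. *Parp4* had the largest SD at 0.59, above that of 85.6% of called genes, followed by *Parp2* at 0.57 and *Parp8* at 0.56. *Tnks2* had the smallest at 0.13, above that of 3.37% of called genes, and *Tnks* was above 14.4%. *Parp3*, at 0.36, lay near the middle. With 5 arrays each SD is imprecise, and it holds mouse and array error together.

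**Figure D3:**
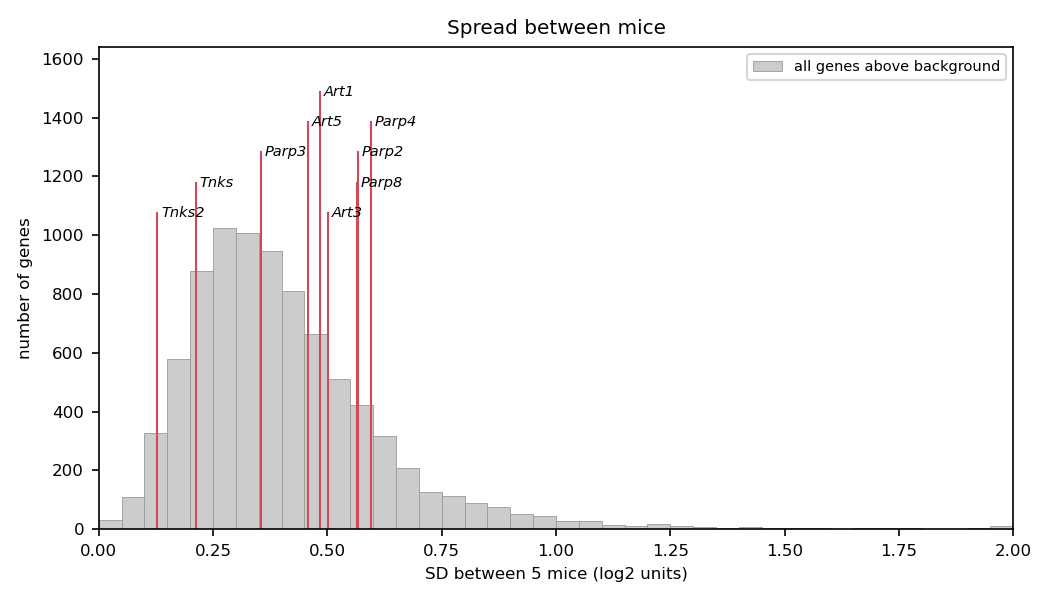
SD between 5 mice in log2 units (horizontal axis) of the 9 genes (red lines, labelled) over a histogram of all 8482 genes called above background (grey; SDs beyond the axis are in the last bin). *Tnks2* sits near the left edge, *Tnks* on the rising left slope, and *Parp4*, *Parp2* and *Parp8* on the right shoulder.

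No mouse was high or low for all 9 genes. Mouse 14 was the highest for 4 of them (*Parp2*, *Parp3*, *Parp4* and *Art1*) and the lowest for 2 (*Tnks* and *Art3*). Over all called genes it was the highest for 26.7% and the lowest for 24.1%, more than any other mouse in both. After renewed quantile normalization it was again the highest for 4 of the 9. Mouse 1 was the highest for 0 of the 9, against 14.4% of called genes, and the lowest for 2, against 21.9%. It was above the gene's own mean for 1 of the 9, against 44.6% of called genes. In mouse 14 the summed signal of 7 endothelial markers was 9.45 on the log2 scale, against 8.71 to 9.08 in the other mice. It was the highest mouse for 4 of them (*Kdr*, *Cdh5*, *Pecam1* and *Emcn*) but the second lowest for *Tek* and *Tie1*. Of these, *Emcn* and *Tie1* were not called above background. The sums of fibroblast and smooth muscle markers were 10.51 and 10.84 in mouse 14, below only mouse 3 at 10.8 and 10.9. The largest signals in these sums were *Dcn* (9.98 in mouse 14) and *Rgs5* (10.42 in mouse 14). Single markers differed: mouse 14 was the lowest for *Col1a1* (5.36), *Col1a2* (6.04) and *Pdgfrb* (5.59). It was the highest for *Rgs5* and for *Myh11*, which was not called above background. The part of endothelial RNA in the values of mouse 14 was not tested. The myofiber markers *Acta1*, *Myh2* and *Mb* stood at the highest signal of each array, 19.93 in 4 mice and 19.90 in mouse 16. These markers therefore cannot measure myofiber content by mouse. Among the other myofiber markers, mouse 14 was the lowest for *Ttn* (17.03), *Casq1* (17.08), *Myh7* (19.31) and *Tnnt1* (19.84). It was the highest for *Ckm* (17.17) and neither for *Ryr1* and *Tnnt3*. *Tnnt1* read 19.92 in mice 1, 3 and 11 and 19.9 in mouse 16, and *Myh7* read 19.9 in mouse 16. These values were at or near the highest signal of the array, so differences between mice in these 2 genes are limited by it. Myofiber content by mouse was not tested. No signal of the 9 genes exceeded 14.70.

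Mice 1 and 16 lay together below the other 3 for *Parp2* and *Tnks2*, and together above them for *Art5*. Such a split was found in 3 of the 9 genes and in 24.2% of all called genes, 13.4% with both mice below and 10.7% with both above. These are the mice with low *Eif2s3y*, and the part of sex in the 3 genes was not tested.

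**Figure D4:**
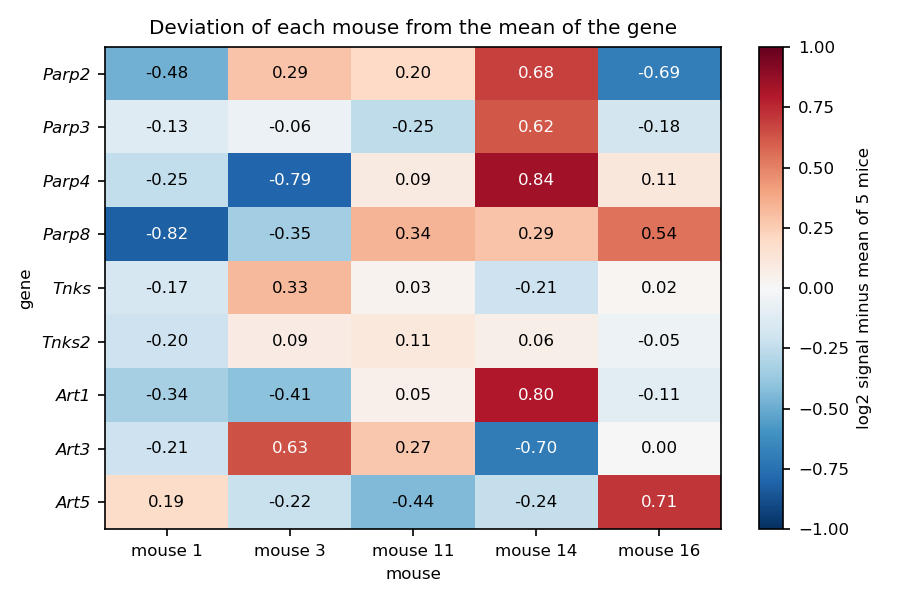
Signal of each mouse (columns) minus the mean over 5 mice of the same gene (rows), in log2 units, from blue (low) to red (high). The column of mouse 14 holds the highest value of *Parp2*, *Parp3*, *Parp4* and *Art1* and the lowest of *Art3* and *Tnks*.

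For *Parp4*, the gene of the 9 with the largest SD, the called genes with the nearest signals over the 5 mice, each centred on its own mean, were *Mrpl14*, for a mitochondrial ribosomal protein, *Actb*, for cytoplasmic actin, and *Vkorc1*, for a vitamin K reductase. Their root mean square differences from *Parp4* were 0.0475, 0.0668 and 0.0923 log2 units. *Actb* read 14.70, 14.10, 15.10, 15.77 and 15.19 in mice 1, 3, 11, 14 and 16, low in mouse 3 and high in mouse 14 like *Parp4*. The profiles were picked by likeness among 8482 called genes over 5 mice, so this is a description only.

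Of the 9 remaining PARP family genes, 4 were called (*Parp6*, *Parp10*, *Parp12* and *Tiparp*), which was close to the 43.5% of all genes. *Parp6*, the closest relative of *Parp8*, had 6.80 ± 0.57 and *Tiparp*, a target of the aryl hydrocarbon receptor, 6.74 ± 0.56 (SD, n = 5 each). *Parp14*, induced by interferon, had 5.05 ± 0.30 and the antiviral *Zc3hav1* 5.04 ± 0.67 (SD, n = 5 each), at distances of -0.23 (limma adjusted p = 0.18) and -0.24 (limma adjusted p = 0.322). *Art4*, the gene of the Dombrock blood group in human, was the single other ART measured and lay below the cutoff in every mouse, at 3.57 ± 0.23 (SD, n = 5).

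Genes that take ADP-ribose off again or split free ADP-ribose were measured in 8 cases and called in 5, against 43.5% of all genes. *Parg*, which cuts poly(ADP-ribose) chains, read between 8.64 and 9.23 in the 5 mice, with a mean of 8.99 ± 0.22 (SD, n = 5). *Macrod1*, for a mitochondrial enzyme that removes single units, had 13.13 ± 0.22 and *Oard1*, of the same activity, 9.28 ± 0.35 (SD, n = 5 each). *Nudt5*, which splits free ADP-ribose, had 4.76 ± 0.27 (SD, n = 5) and lay below the cutoff in every mouse.

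Partners of PARP1 in break repair were called in 9 of 10 cases, against 43.5% of all genes, on a list drawn up with these data known. *Hpf1*, which directs PARP1 and PARP2 to serine, had 7.07 ± 0.29, and *Xrcc1*, a scaffold drawn to poly(ADP-ribose), 7.05 ± 0.40 (SD, n = 5 each). *Chd1l*, a chromatin remodeler activated by poly(ADP-ribose), had 8.79 ± 0.35 and the ligase gene *Lig3* 8.73 ± 0.45 (SD, n = 5 each).

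Partners and targets of tankyrases were called in 8 of 10 cases, against 43.5% of all genes, on a list of the same kind. *Rnf146*, the ubiquitin ligase that reads tankyrase marks, had 9.47 ± 0.47, *Axin1* 7.16 ± 0.40 and *Axin2* 6.86 ± 0.32 (SD, n = 5 each). *Tnks1bp1*, named for binding tankyrase, had 4.66 ± 0.34 (SD, n = 5) and lay below the cutoff in every mouse, at a distance of -0.62.

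**Figure D5:**
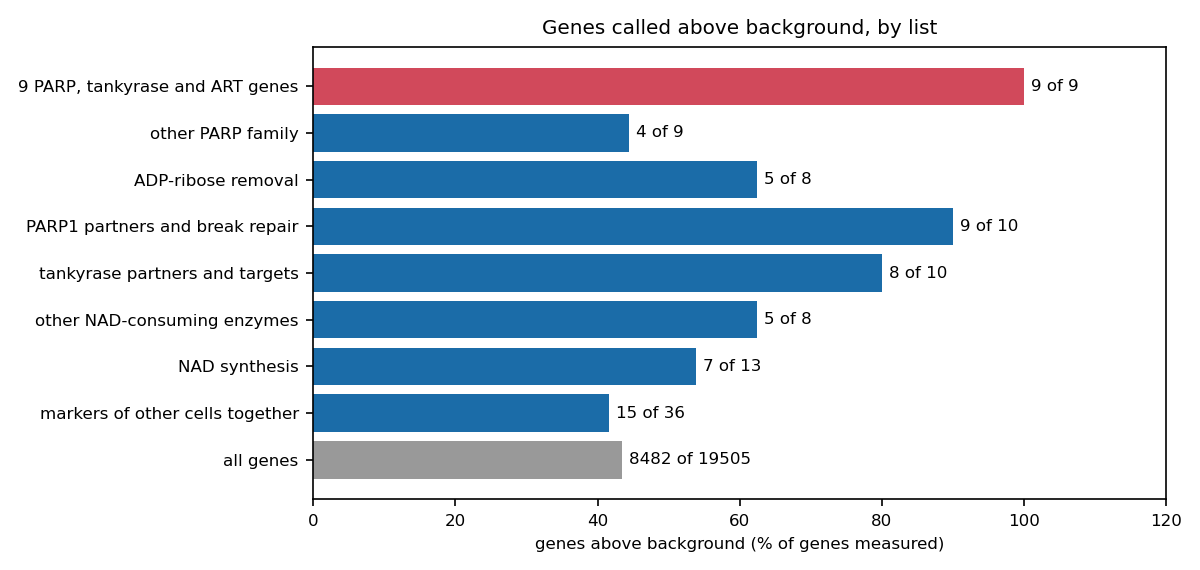
Share of measured genes called above background (horizontal axis, %), with the counts beside each bar, for the 9 genes (red), related lists and markers of other cells (blue), and all genes (grey). The 9 genes stand at 9 of 9 and all genes at 8482 of 19505. The list labelled NAD synthesis also holds genes of related NAD and nicotinamide metabolism.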

How the data were processed

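Ribosome-bound RNA of 5 left soleus muscles was measured on mouse Clariom S arrays, 1 per mouse. The authors processed intensities with Transcriptome Analysis Console 4.0, default configuration, and deposited log2 signals for 22206 probe sets. How probes were summarized, and on which genome build, is not given in the sources used here. Of these probe sets, 19572 had 1 gene symbol and 2634 none in the platform annotation. Signals of 55 genes with several probe sets were averaged. No further normalization was applied.

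Each gene's signal minus the array's 95th percentile of 1091 odorant receptor genes was compared with 0 in a one-sample fit (limma 3.58.1, R 4.3.3, lmFit and eBayes). P-values were two-sided and Benjamini-Hochberg adjusted over 19505 genes, and the fit was tested on simulated data. The number of arrays limits the precision. A p-value here weighs the mean distance from the cutoff against the variation between these 5 mice only, moderated over all genes. That variation holds mouse and array error together. Replicate numbers are those of the labels.

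The members and the lists of related genes and markers were chosen with earlier results of these data known. Genes named are the members, a fixed selection from those lists, *Rpl22*, *Myog*, *Eif2s3y*, *Kdm5d* and *Uty*. Also named are the 3 genes nearest in profile to the called member with the largest SD. *Rrp9* was chosen after the data were seen, as a neighbour of *Parp3*. *Parp10*, *Parp12* and *Sirt6* were named from the lists after their calls were seen. Cell markers named were also chosen after their values were seen. Listed symbols with no probe set of that name, *Parp1* among them, were not analysed here. Settings varied were the background genes (2 other sets), their percentile (50th, 90th or 99th), the prior of the fit (trended and robust), the scaling (quantile), the choice among probe sets (highest mean), low genes (mean under 4 removed), the call (no model) and the mice (each left out, and mice 1 and 16 left out together). Motifs were searched in RefSeq promoter windows with Python 3.11.15.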

Additional observations from a re-analysis of the deposited data

Results flagged for a closer look

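In 2 of 37 genes checked, 1 mouse lay far from the other 4. The 37 were the members and a fixed selection from the lists of related genes, without the cell markers. The measure was the gap to the nearest mouse over the whole range, with a critical value of 0.71 for 5 samples, and chance flags about 1 in 20 groups. Over all called genes, 5.60% passed the same value. *Parp3* had a ratio of 0.773, with mouse 14 at 12.45 above the other 4, which lay between 11.57 and 11.77. *Sirt1*, an NAD-dependent deacetylase gene, had a ratio of 0.72, with mouse 14 at 9.83 below the other 4, which lay between 10.25 and 10.41.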

How the results depend on the processing

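The 9 members were called above background under each of the 15 other settings and also lay above the cutoff in every mouse with no model. All 135 values of their distances kept their direction and side of the threshold. The largest adjusted p from limma was 0.0221, for *Parp2* at the 99th percentile. Over all genes the count of calls was 12814 at the 50th percentile (65.7%), in place of 8482, and with 1 mouse left out it lay between 8353 and 8390. In the other settings it stayed within 1.5 times of the main count. The probe-set choice left the distances of the 9 genes as they were, since each has 1 probe set. Spreads depended on single mice: 5 of the 9 SDs moved by over 1.5 times without 1 mouse. No paired analysis was possible because the series holds a single group. How far a signal lies above background limits what an array can show, and *Parp2* in mice 1 and 16 read 5.92 and 5.71, near the cutoff.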

Other observations

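Other genes of NAD handling were called above background in part. Of 13 genes measured on a list of NAD synthesis and related NAD and nicotinamide metabolism, 7 were called, against 43.5% of all genes. Among the 7 were *Nampt*, the rate-limiting enzyme of NAD salvage, at 14.33 ± 0.40, and *Nmnat1*, for the nuclear enzyme of the last step, at 9.25 ± 0.46 (SD, n = 5 each). *Nmrk2*, the muscle nicotinamide riboside kinase gene, had 10.32 ± 1.10 (SD, n = 5), with 11.61 in mouse 11 and 9.12 in mouse 16 as its extremes. Of 8 other NAD-consuming enzymes measured, 5 were called, all of them sirtuins, again against 43.5% of all genes. A further sirtuin gene, *Sirt6*, was not called, at 5.17 ± 0.47 (SD, n = 5) and a distance of -0.10 (limma adjusted p = 0.589). *Sarm1*, the NAD-cleaving gene of axon degeneration, had 3.58 ± 0.28 (SD, n = 5) and lay below the cutoff in every mouse.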
